A study of Mus musculus with 6 samples.

Results

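The measurements described here are those of 5 genes of the blood vessel wall and its growth factors in the mouse prelimbic cortex (PL): Acta2 and Myh11 of vascular smooth muscle, Vwf and Ptprb of the endothelial lining, and Figf, a growth factor gene now called Vegfd. Each was read by 1 probe of a bead array (Acta2 by ILMN_2693895, Myh11 by ILMN_2622217, Vwf by ILMN_2519673, Ptprb by ILMN_2591731 and Figf by ILMN_2697220), out of 25697 probes per array. The genes were found by symbol in the study's tables of selected genes, which give names to 899 probes. Those tables list probes that differed by at least 1.2-fold on these same arrays, 2 of the 5 genes (Acta2 and Figf) for chronic stress against control and all 5 for the later treatment, so the values below describe the genes and carry no test.

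The 6 arrays came from 3 groups of male C57BL/6 mice aged 3 months, with 2 arrays per group and RNA pooled from the PL of 6 to 7 animals on each array. CON mice were naive and received no restraint. CRST mice (chronic restraint stress) were restrained for 2 h on each of 14 days, and CRST+RS5 mice had the same 14 days and then 5 min of restraint per day for another 14 days. Tissue was taken on post-stress day 22, and the comparisons ask how chronic stress alters PL transcripts and how the repeated brief restraint alters them afterwards.

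Blood vessels of the cortex have an inner tube of endothelial cells, a basement membrane of laminins, collagen IV and proteoglycans, and an outer layer of mural cells. Around arteries and arterioles the mural cells are smooth muscle, whose actin and myosin set the vessel's width, and around capillaries they are pericytes. The larger vessels run in the meninges at the brain surface and dive into the cortex with a thin sheath of fibroblasts and macrophages. Vascular growth factors bind tyrosine kinase receptors on endothelial cells and control their growth, survival and permeability.

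The promoters of Acta2 and Figf are shown because these 2 of the 5 genes matched a window in the table used, and they differed from CON in opposite directions in CRST mice. They are the 250 bases before an annotated start in RefSeq (GRCm38.p6), 5′ to 3′, with motif matches in capitals. Acta2 lies at chr19:34255374-34255623 on the minus strand and Figf at chrX:164373272-164373521 on the plus strand.
Acta2: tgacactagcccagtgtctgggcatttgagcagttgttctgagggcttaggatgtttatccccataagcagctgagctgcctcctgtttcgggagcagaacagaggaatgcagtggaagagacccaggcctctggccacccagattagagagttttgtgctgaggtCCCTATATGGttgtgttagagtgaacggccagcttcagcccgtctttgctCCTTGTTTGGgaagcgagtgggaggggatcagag
Figf: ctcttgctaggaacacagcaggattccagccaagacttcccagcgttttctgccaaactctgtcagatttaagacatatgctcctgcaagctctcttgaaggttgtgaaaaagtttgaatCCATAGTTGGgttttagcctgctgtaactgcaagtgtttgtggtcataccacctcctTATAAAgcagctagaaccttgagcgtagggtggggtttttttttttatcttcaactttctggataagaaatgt
The capitals of Acta2 are its 2 matches to the CArG box, the element bound by serum response factor in smooth muscle genes, at window positions 167 and 217. The motif was searched on both strands as CC, 6 bases that are A or T, and GG, with at most 1 G or C allowed among the 6. Figf held 1 such match at position 121, and TATAAA at position 178. Of 32851 windows of the same length, 8.59% held the CArG box in this form and 12.4% held TATAAA. The form with no G or C in the core was in neither gene and in 1.47% of the windows, and among the 7 named smooth muscle genes with a window only Acta2 held the looser form. TGANTCA, in 6.75% of windows, and CCGGAA, in 12%, had no match in either.

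With a detection p-value threshold of 0.05, each array detected 12645 to 13407 probes, and 13083 probes were detected on both arrays of 1 or more groups. Across these, arrays of 1 group correlated at 0.995 to 0.997 and arrays of different groups at 0.994 to 0.997. The genes of cortical projection neurons Tbr1, Fezf2 and Cux2 and the neurofilament gene Nefm, picked after the values were seen, were detected on all 6 arrays. In limma's test with Benjamini-Hochberg adjustment, 0 probes passed 0.05 in any of the 3 comparisons. Under an unadjusted 0.05 there were 428 probes (3.27%) for CRST against CON. There were 1107 (8.46%) for CRST+RS5 against CRST and 1045 (7.99%) for CRST+RS5 against CON. That fit had no block for the replicate number. With a replicate block, 34 probes passed for CRST+RS5 against CRST. Acta2 was among them, but it was selected for this difference on the same arrays, so its passing carries no test. It is not stated whether equal replicate numbers mark the same one of the 2 sets in which the groups were prepared. CRST replicate 2 stood apart in myelin genes and CRST+RS5 replicate 2 in genes of the olfactory mucosa, as given further below.

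Acta2, the smooth muscle actin gene, encodes the protein that forms the thin filaments of arterial mural cells. Its signal was 2255 and 3530 on the CON arrays, 1527 and 3199 on the CRST arrays, and 3680 and 5264 on the CRST+RS5 arrays, with replicate 1 first. After log2 transformation and quantile normalization the same arrays read 11.29 and 11.66 in CON, 10.71 and 11.32 in CRST, and 11.95 and 12.44 in CRST+RS5. Both CRST+RS5 arrays were above all other arrays, whereas CRST replicate 2 lay between the 2 CON arrays. The means were 11.48 ± 0.26 in CON, 11.02 ± 0.43 in CRST and 12.19 ± 0.35 in CRST+RS5 (SD, n = 2 arrays). The spread of Acta2 within groups was wide: its pooled SD of 0.354 was above that of 99.4% of probes, whose median was 0.0845, and replicate 2 exceeded replicate 1 in each group.

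Myh11, the myosin heavy chain of differentiated smooth muscle, had a signal close to that of undetected probes. It was 228 and 260 in CON, 172 and 263 in CRST, and 280.4 and 344 in CRST+RS5, against a median of 125.7 to 145 for undetected probes of an array. Only CRST replicate 1 missed the detection threshold, with a detection value of 0.0877. On the log2 scale it read 7.96 and 7.93 in CON, 7.55 and 7.84 in CRST, and 8.18 and 8.42 in CRST+RS5. The 3 groups did not overlap, with CRST lowest and CRST+RS5 highest, and the means were 7.95 ± 0.02, 7.70 ± 0.20 and 8.30 ± 0.17. Of all probes, 14.3% had both CRST arrays below both CON arrays, and 17.7% had both CRST+RS5 arrays above both CON arrays. In a tissue homogenate fewer cells of a type and less RNA per cell cannot be told apart, for this and every other gene here.

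The endothelial gene Vwf encodes von Willebrand factor, a clotting protein that endothelial cells store and release. Its log2 values were 8.99 and 9.06 in CON, 8.87 and 8.97 in CRST, and 9.47 and 9.41 in CRST+RS5. Both CRST+RS5 arrays stood well above the other 4, and both CRST arrays were slightly below both CON arrays. Ptprb encodes the vascular endothelial protein tyrosine phosphatase, which acts on the receptor Tie2 and on junctions between endothelial cells. It read 9.11 and 9.29 in CON, 9.03 and 9.16 in CRST, and 9.65 and 9.56 in CRST+RS5. Its CRST+RS5 arrays were again the highest, but CRST and CON overlapped. The group means were 9.03 ± 0.05, 8.92 ± 0.07 and 9.44 ± 0.04 for Vwf. Those of Ptprb were 9.20 ± 0.13, 9.10 ± 0.09 and 9.60 ± 0.06.

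Figf encodes vascular endothelial growth factor D, a ligand of the receptor Flt4 (VEGFR-3), which is best known for the growth of lymphatic vessels. Its signal was 637 and 790 in CON, 888 and 1263 in CRST, and 732 and 781 in CRST+RS5. On the log2 scale it read 9.47 and 9.51 in CON, 9.95 and 9.98 in CRST, and 9.60 and 9.64 in CRST+RS5. The order of the groups thus differed from that of the wall genes: CRST was highest, CRST+RS5 was between, CON was lowest, and no 2 groups overlapped. Both CRST arrays were above both CON arrays in 15% of all probes. The means were 9.49 ± 0.03, 9.97 ± 0.02 and 9.62 ± 0.03, and the pooled SD of 0.0266 was wider than that of only 3.63% of probes.

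**Figure D1:**
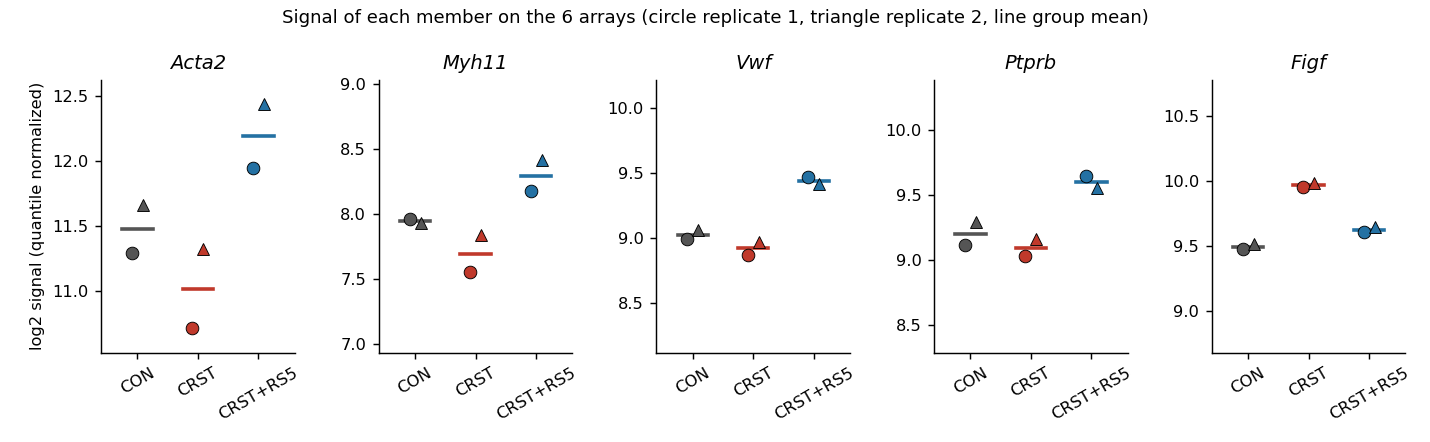
Quantile normalized log2 signal of Acta2, Myh11, Vwf, Ptprb and Figf on each of the 6 arrays, with a bar at the mean of the 2 arrays of each group (CON, CRST, CRST+RS5). The 4 wall genes were highest on both CRST+RS5 arrays, and Figf was highest on both CRST arrays.

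In the comparison of CRST with CON, which asks what chronic stress left in the tissue, the 4 wall genes were lower in the mean and Figf was higher. Acta2 stood at a log2 difference of -0.46 (limma SE 0.22, 1.37-fold lower), the 8th lowest of 13083 probes, with 3 of the 4 differences between single arrays negative (-0.95 to 0.03). Figf stood at 0.48 (SE 0.07, 1.39-fold higher), the 7th highest, and its 4 array differences of 0.44 to 0.51 all had the same sign. These were the members selected for this comparison, in which 0.864% of probes were lower and 0.78% higher by at least 1.2-fold. Myh11 fell just outside that threshold, at -0.25 (SE 0.12, 1.19-fold), the 144th lowest probe, with all 4 array differences negative. Vwf at -0.11 (SE 0.08) and Ptprb at -0.11 (SE 0.09) were far from it. Of all probes, 15% had both CRST arrays above both CON arrays and 14.3% had both below, so the lack of overlap is common. Myh11, Vwf and Ptprb were selected through CRST+RS5 against CRST, which uses the same CRST arrays, so their lower CRST means are not independent of the selection.

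The Acta2 value of CRST mice rested on single arrays. Its difference from CON was -0.15 without CRST replicate 1, which is under 1.2-fold, -0.76 without CRST replicate 2 and -0.27 without CON replicate 2. For Myh11 the difference was -0.11 without CRST replicate 1 and -0.39 without CRST replicate 2, and it lay past 1.2-fold in the latter. Figf kept to 0.45 to 0.50 whichever array was left out.

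The repeated brief restraint was assessed by setting CRST+RS5 against CRST, where all 5 members passed 1.2-fold with no overlap between the groups, 4 higher and 1 lower. The rule chose them for this. Of all probes, 2.89% exceeded 1.2-fold upwards and 1.75% downwards, and with the further condition that the arrays did not overlap the shares were 2.65% and 1.32%. Acta2 was 2.26-fold higher (log2 difference 1.18, SE 0.22), the 15th highest probe, and its 4 array differences ran from 0.63 to 1.73. Myh11 was 1.52-fold higher (0.60, SE 0.12), Vwf 1.44-fold (0.52, SE 0.08) and Ptprb 1.42-fold (0.51, SE 0.09). These 3 genes therefore differed by similar amounts, and Acta2 by more. Figf was 1.27-fold lower (-0.34, SE 0.07), which made it the member closest to the threshold.

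Set against CON rather than CRST, the wall genes of CRST+RS5 mice were still higher on both arrays. Acta2 stood at 0.72 (1.65-fold), Vwf at 0.41 (1.33-fold), Ptprb at 0.40 (1.32-fold) and Myh11 at 0.35 (1.28-fold), and Figf stood at 0.13 (1.10-fold). All 5 had both CRST+RS5 arrays above both CON arrays, where 17.7% of all probes did, and 4 of 5 were higher by at least 1.2-fold, where 2.57% of probes were and 1.31% were lower. The comparisons share arrays, so these values are not a separate line of evidence. Thus Vwf and Ptprb were 1.08-fold lower than CON in CRST mice but 1.33-fold and 1.32-fold higher than CON in CRST+RS5 mice. Without CRST+RS5 replicate 2, the difference from CON was 0.47 for Acta2 and 0.23 for Myh11, the latter under 1.2-fold.

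**Figure D2:**
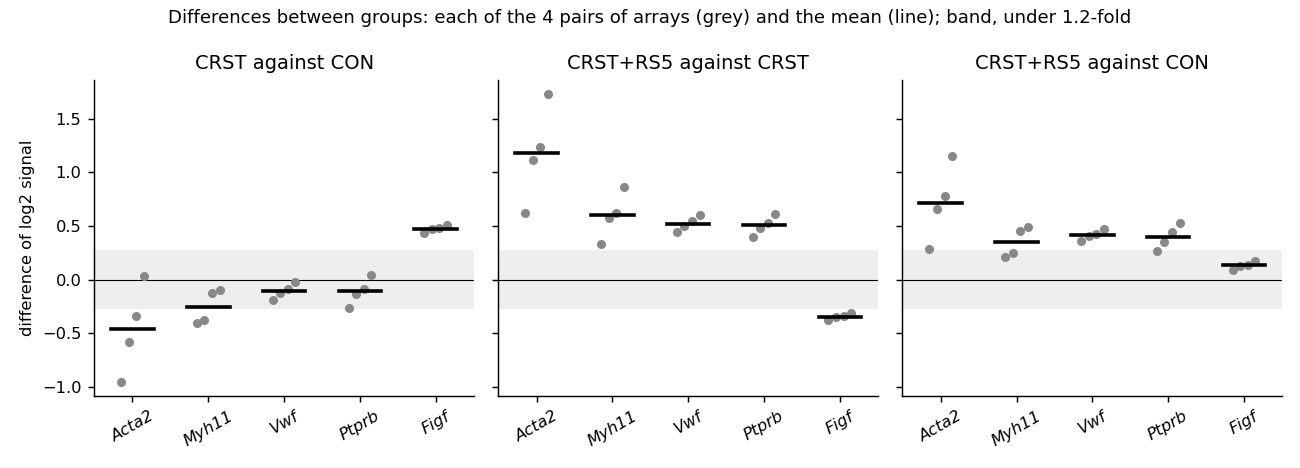
Log2 differences between group means (lines) for the 5 genes in the 3 comparisons, with points for the 4 differences between single arrays and a band for values under 1.2-fold. Acta2 had the widest range of points, from 0.63 to 1.73 for CRST+RS5 against CRST, and the points of Figf lay close together at -0.38 to -0.31.

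The members also differed in how closely they followed each other over the 6 arrays. With each probe centred on its own mean, Vwf and Ptprb differed by 0.0298 per array on average (log2). Myh11 differed from these by 0.102 and 0.117, and Acta2 from the other wall genes by 0.256 to 0.269. Figf lay 0.318 to 0.562 from the rest. The endothelial pair thus had nearly the same profile, Myh11 was close to it, and Acta2 had the same order of groups with a larger amplitude.

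The larger amplitude of Acta2 compared with Myh11 depended on the background. Myh11 had a signal near that of undetected probes, and no background was subtracted in the values above. With normexp correction the difference between CRST+RS5 and CRST became 1.30 for Myh11 and 1.23 for Acta2, and that between CRST+RS5 and CON became 0.68 for Myh11. The difference between CRST and CON became -0.62 for Myh11, past 1.2-fold. After subtraction of each array's median undetected signal, with no other normalization, the CRST+RS5 mean over the CRST mean was 2.16 for Myh11, 1.95 for Acta2, 1.41 for Vwf, 1.36 for Ptprb and 0.660 for Figf. On this linear scale the CRST mean over the CON mean was 0.742 for Myh11, 0.808 for Acta2, 0.988 for Vwf, 0.990 for Ptprb and 1.62 for Figf. The smooth muscle pair was then alike in its differences, and the endothelial pair was close to CON in CRST mice.

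**Figure D3:**
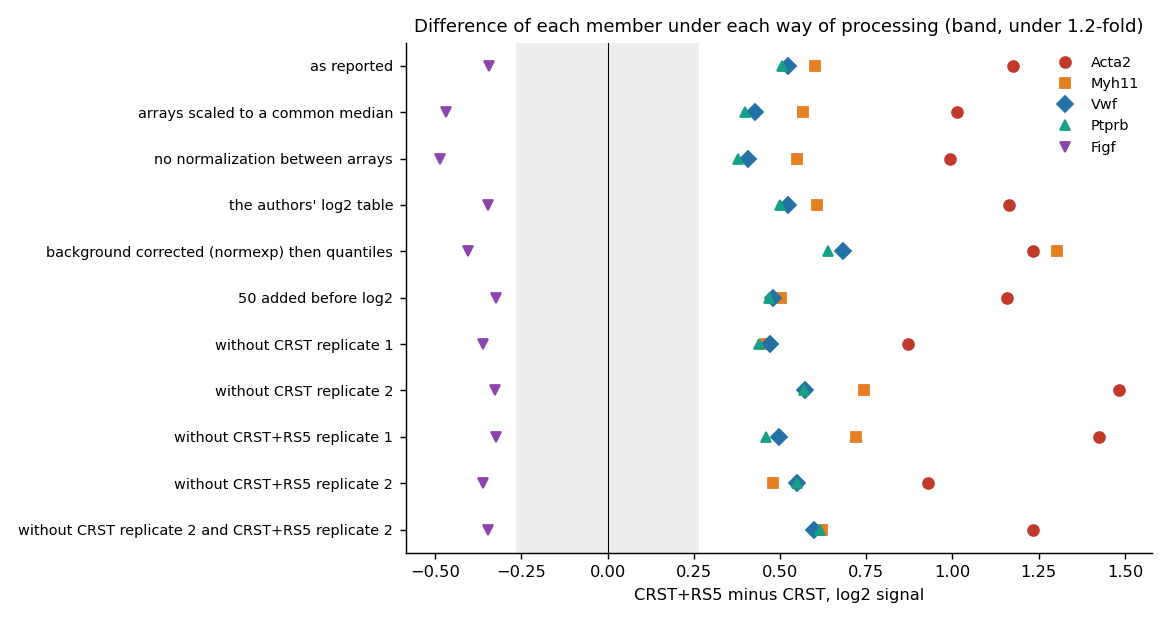
Log2 differences of the 5 genes for CRST+RS5 against CRST under the main processing and its 10 alternatives, including each CRST and CRST+RS5 array left out. No sign turned, and the largest move was that of Myh11 with normexp, to 1.30 for CRST+RS5 against CRST.

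Other genes of the vessel wall were described from 5 lists of 112 genes in all. Beside the members, 29 carried a name on these arrays and 24 of those passed the detection filter, and their names exist only because the study selected them on the same arrays, which fixed much of their counts in advance. Of the 24, 22 were detected on all 6 arrays, and Anpep and Sox17 passed the filter through the CRST+RS5 arrays alone. For CRST against CON, none of the 24 passed 1.2-fold, and 20 were lower in the mean with a median of -0.09, where 50% of all probes were higher. The same CRST arrays entered the selection through CRST+RS5 against CRST, so that share is not an independent yardstick. The 4 that were higher, Flna, Slc2a1, Tmem204 and Ramp3, stood at 0.01 to 0.05, and without normalization between arrays the medians of the 5 lists were -0.06 to 0.01. Without CON replicate 2 only 12 of the 24 were lower, the endothelial median became 0.044 and the pericyte median 0.029, and without CON replicate 1 the number lower was 23, with 3 past 1.2-fold. Without CRST replicate 1 the count of lower genes was 16, and Ramp3 passed 1.2-fold upwards. For CRST+RS5 against CRST, 23 were higher by at least 1.2-fold and 1 was lower, with a median of 0.34 (-0.28 to 0.53), where the median of all probes was -0.01. The 21 became 14 when CRST replicate 1 was left out and 16 when CRST+RS5 replicate 2 was. Against CON, 12 of these 22 were higher by at least 1.2-fold and 1 was lower, with a median of 0.27, and the 12 became 6 without CON replicate 1.

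Among 21 smooth muscle contractile genes, 8 carried a name and 7 were kept, with Acta2 and Myh11 among them. The other 5 stood between 0.27 and 0.49 for CRST+RS5 against CRST. Smtn, which encodes smoothelin of contractile smooth muscle, was at 0.49, Tpm2, a tropomyosin, at 0.47, and Mylk, the kinase that phosphorylates myosin light chain, at 0.38. Flna, the actin crosslinker filamin A, stood at 0.30, and Mrvi1, a target of cGMP-dependent kinase in smooth muscle, at 0.27, just inside the threshold. For CRST against CON these genes ran from -0.14 (Mylk) to 0.01 (Flna), so the lower mean of Acta2 had no counterpart of its size among them. All 7 were highest on CRST+RS5 replicate 2. Without that array, 4 of the 7 passed 1.2-fold against CRST and the list median went from 0.47 to 0.30, with Mylk at 0.15, Flna at 0.22 and Mrvi1 at 0.24 below the threshold. Against CON the number past 1.2-fold was 5 with the array and 2 without it. Ppp1r14a, an inhibitor of myosin phosphatase, was detected on 2 arrays and did not pass the filter.

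Of 14 pericyte genes, 3 carried a name and were kept, and 2 of them were detected on all 6 arrays. Vtn, the matrix protein vitronectin, stood at 0.32 for CRST+RS5 against CRST and at 0.23 against CON, and Cd248, the mural cell protein endosialin, at 0.29 and 0.25. Without CRST+RS5 replicate 1 neither passed 1.2-fold against CRST. Anpep, an aminopeptidase of pericytes, was detected on the CRST+RS5 arrays alone, so its difference is only a bound of at least 1.08-fold over the lowest detected signal. The pericyte genes Pdgfrb and Rgs5 carried no name here and were not analysed.

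Of 34 endothelial genes, 11 carried a name and 9 were kept, and 8 of these were detected on all 6 arrays. The 8, named through selection at 1.2-fold on these arrays, exceeded their CRST level by at least 1.2-fold in CRST+RS5 mice, where 2.89% of all probes did. Their median was 0.40, and 6 of them did so without CRST replicate 1 or without CRST+RS5 replicate 2. Beside Vwf and Ptprb, Gkn3, a secreted protein of arterial endothelium in the mouse brain, stood at 0.53, Tmem204 at 0.43, and Klf2, a transcription factor induced by blood flow, at 0.38. Ramp2, a partner of the adrenomedullin receptor, was at 0.33, Flt1, a receptor for vascular endothelial growth factor, at 0.33, and Slc2a1, the glucose transporter of the blood-brain barrier, at 0.30. Against CON, 7 of the 8 passed 1.2-fold, with Flt1 at 0.13 as the exception, and 4 did so without CRST+RS5 replicate 2. Sox17, a transcription factor of arterial endothelium, was detected on the CRST+RS5 arrays alone, at least 1.11-fold above CRST. Thbd and Gpihbp1 were detected on no array.

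The growth factor and receptor list held 33 genes, of which 7 carried a name and 6 were kept, and Figf was the only one of them past 1.2-fold in CRST against CON. Angpt2, an endothelial ligand of Tie2, stood at -0.19 for CRST against CON and at 0.41 for CRST+RS5 against CRST. Tgfbr2, a receptor for transforming growth factor beta, stood at -0.19 and 0.31, and Flt1 at -0.20 and 0.33. Ramp3, a sister protein of Ramp2, was the 1 vascular gene beside Figf, among those that passed the detection filter, with a lower CRST+RS5 mean than CRST mean, at -0.28, and it was at 0.02 for CRST against CON. It was at -0.51 without CRST+RS5 replicate 2, and within 1.2-fold without CRST+RS5 replicate 1 or CRST replicate 2. The CRST arrays of Ramp3 read 9.31 and 9.85 and those of CRST+RS5 9.07 and 9.53, so the groups overlapped. Flt4, the receptor that Figf binds, was detected on no array.

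The vascular basement membrane was represented by 6 genes kept of 17 listed, named through selection at 1.2-fold on these arrays. All 6 exceeded their CRST level by at least 1.2-fold in CRST+RS5 mice, where 2.89% of all probes did. The laminin chain Lamb2 and the collagen Col18a1 stood at 0.41, the nidogen Nid1 and the perlecan gene Hspg2 at 0.35, the laminin chain Lama1 at 0.31 and Lamc3 at 0.29. Against CON, 4 of the 6 passed 1.2-fold, with a median of 0.28, and Lama1 at 0.18 and Lamc3 at 0.23 did not. Without CON replicate 1 the number was 1 of 6.

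**Figure D4:**
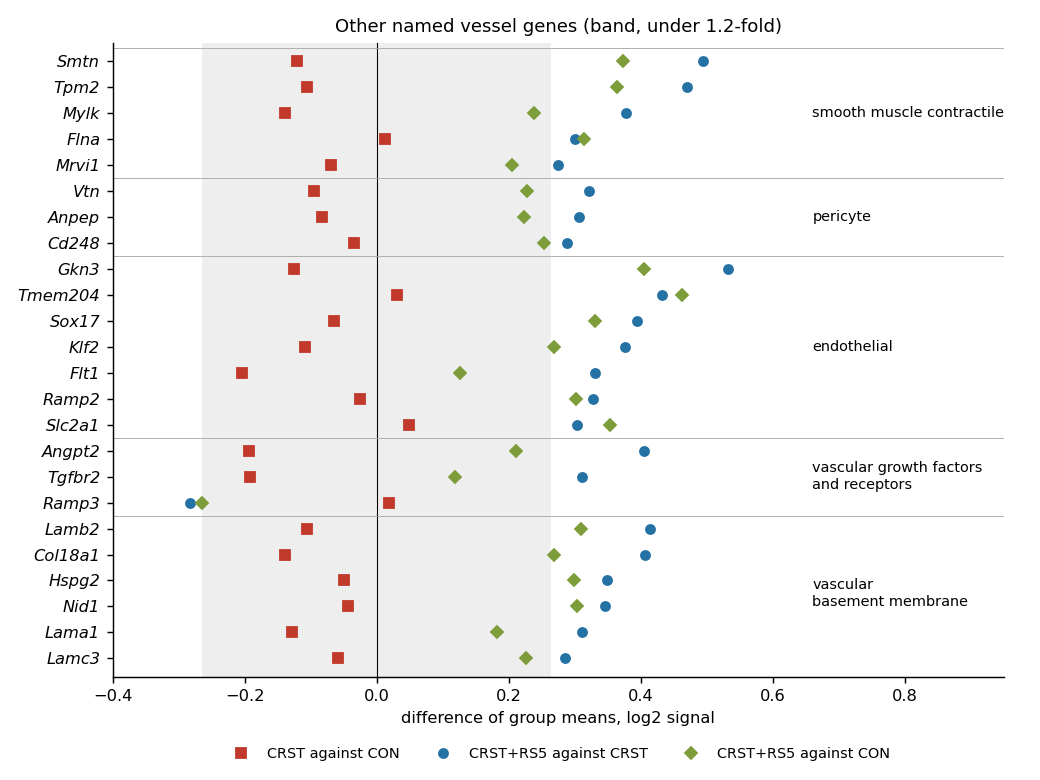
Log2 differences of the named and detected vessel genes, by list, for CRST against CON, CRST+RS5 against CRST and CRST+RS5 against CON. The 24 genes beside the members had medians of -0.09, 0.34 and 0.27 in that order, and Ramp3 lay at -0.28 in the second comparison.

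Markers of cells that surround vessels at the brain surface moved with the wall genes. Of 30 genes of meningeal fibroblasts, 27 carried a name and 26 were kept, and 21 of these were detected on all 6 arrays. Their names, too, come from selection at 1.2-fold on these arrays. The 21 all passed 1.2-fold upwards for CRST+RS5 against CRST, with a median of 0.96, where 2.89% of all probes did. Crabp2 was detected on the CRST+RS5 arrays alone and Aldh1a2 on neither CRST array, so that they have bounds of at least 1.16-fold and 1.22-fold over CRST. Over the 26, the median deviation from the CON mean was -0.21 and 0.21 on the CON arrays, -0.48 and -0.07 on the CRST arrays, and 0.58 and 0.69 on the CRST+RS5 arrays. Replicate 1 was thus below replicate 2 in each group, as for Acta2. Their summed normalized signal was 21196 to 29879 in CON, 16857 to 23349 in CRST and 40253 to 41422 in CRST+RS5, and Slc22a2 was detected on none of the arrays.

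Macrophages of the brain borders gave 7 kept genes of 12 listed, with H2-Aa detected on no array. All 7, named through the same selection, passed 1.2-fold upwards, with a median of 0.54, and their summed signal was 1729 to 2096 in CON, 1599 to 1643 in CRST and 2326 to 2578 in CRST+RS5. The part of these surface cells in the differences of the 5 genes was not tested.

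The arrays that stood apart did so most clearly in genes outside the vessel lists. CRST+RS5 replicate 2 also held the highest value of each of the 7 smooth muscle genes, Acta2 and Myh11 among them. The 5 kept genes of the olfactory mucosa (20 listed, 16 named) were all highest on CRST+RS5 replicate 2, where their median deviation from CON was 0.84, against 0.02 on replicate 1 of that group, and their summed signal was 10374 and 1786. The named genes that the filter dropped also read higher on CRST+RS5 replicate 2 than on replicate 1. In 1 of them the values were 13.38 and 7.46, so the median of the kept genes understates how far CRST+RS5 replicate 2 stood apart. Red blood cell genes (Hba-a1 and Alas2 kept of 8 listed) had a median deviation of 0.69 on the same array. The 19 myelin genes were all highest on CRST replicate 2, at a median of 0.87, against -0.26 on CRST replicate 1. With both replicate 2 arrays of the stressed groups left out, an alternative added after the data were seen, Acta2 stood at 1.23 for CRST+RS5 against CRST and at -0.76 for CRST against CON. The smooth muscle list had median deviations of 0.23 and 0.46 on the CRST+RS5 arrays, replicate 1 first, and the endothelial list 0.33 and 0.37. Without CRST+RS5 replicate 2, 2 of 7 smooth muscle genes passed 1.2-fold against CON, and so did 4 of the 8 endothelial genes detected on all 6 arrays. Whether the olfactory mucosa signal and the vessel genes shared a source was not tested.

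**Figure D5:**
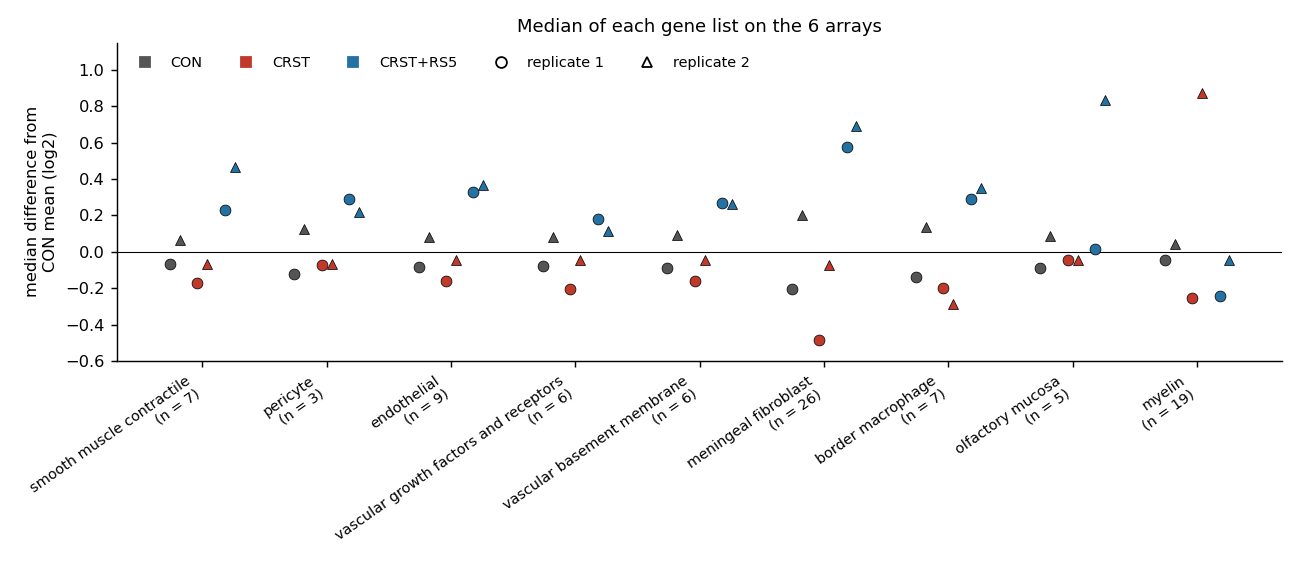
Median deviation of each gene list from its CON mean (log2) on each of the 6 arrays. The smooth muscle, endothelial and meningeal fibroblast lists were highest on the 2 CRST+RS5 arrays, and the myelin list was highest on CRST replicate 2, at 0.87.

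Among 674 other named and detected probes, those closest to each member were found by the mean absolute gap between centred log2 values over the 6 arrays. For Acta2 these were Dcn at 0.103, Bgn at 0.111 and Gstm2 at 0.112, of which Dcn and Bgn encode small proteoglycans of the extracellular matrix. Myh11 was closest to Id1 at 0.0517, Smoc1 at 0.0603 and Sult1a1 at 0.0676. For Vwf the nearest were Cd63 at 0.0415, Adarb1 at 0.0460 and Ifitm2 at 0.0504, and for Ptprb they were PDPN at 0.0360, Zbtb7c at 0.0403 and Mrgprf at 0.0437. Figf was closest to Cyb5r1 at 0.0594, Zhx1 at 0.0601 and Rps3a at 0.0629. The gap of 0.0298 between Vwf and Ptprb was smaller than any of these.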

How the data were processed

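Mouse Ref-8 bead arrays were used by the authors, who deposited untransformed average signal intensities and their detection p-values, together with a quantile normalized log2 table. Signals were extracted with GenomeStudio, and background subtraction is not stated. Here the deposited intensities were log2 transformed and quantile normalized over 6 arrays in R 4.3.3 with limma 3.58.1, and matched the authors' log2 values at r = 1.00 on every array (largest gap 0.105). The 13083 probes below a detection p-value of 0.05 on both arrays of any group were kept. Differences were read at 1.2-fold, the criterion of the study, and tested over all probes with limma and Benjamini-Hochberg adjustment at 0.05. The limma procedure was checked on simulated data with known changes. Names came from the study's tables of selected probes, 851 of 899 matched to RefSeq. The members and gene lists were chosen with earlier results of these data known. Named were the 5 members, the named genes of the vessel lists and the 3 closest probes per member. The groups were prepared as 2 sets, but no source ties the replicate numbers to a set. P-values measure the spread between pools, and precision is limited by the few arrays. Comparisons selected by the authors were not used as values.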

Additional observations from a re-analysis of the deposited data

How the results depend on the processing

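The 5 genes kept the sign of their differences under all 10 alternatives in each comparison, with 126 values moved by less than the replicate spread and 24 by more. The count of probes past 1.2-fold was less stable. For CRST against CON it was 215, and 526 without normalization, 1395 with normexp, 130 with 50 added to the signals and 372 to 823 with an array left out. For CRST+RS5 against CRST it was 607, and 1427 with arrays scaled to a common median, 1827 without normalization, 2034 with normexp and 863 to 1223 with an array left out. For CRST+RS5 against CON it was 508, and 1927 with normexp and 567 to 1085 with an array left out. The higher and lower calls were 102 and 113 for CRST against CON, 244 and 65 with the common median and 492 and 34 without normalization. For CRST+RS5 against CRST they were 378 and 229, 211 and 1216 with the common median, which took the all-probe median to -0.11, 188 and 1639 without normalization (-0.13), and 973 and 1061 with normexp. For CRST+RS5 against CON they were 336 and 172, 219 and 430 with the common median, 266 and 291 without normalization and 926 and 1001 with normexp. The adjusted p of limma was passed by 0 probes in each; without normalization by 1, 19 and 13, and with an array left out by 0 to 14, 0 to 31 and 0 to 11. In a fit with a replicate block, 34 probes passed for CRST+RS5 against CRST. Acta2 was among them, which carries no test because it was selected for this difference on the same arrays. The block changed no other call of the 5 genes. Deviations of same-numbered arrays correlated at 0.247 for CON with CRST, 0.259 for CRST with CRST+RS5 and 0.0509 for CON with CRST+RS5. These values do not settle whether the number pairs pools. It was not taken to do so because no source states that it marks a set. The myelin median of 0.30 for CRST against CON was 0.87 without CRST replicate 1 and -0.26 without CRST replicate 2, and that of -0.45 for CRST+RS5 against CRST was -1.06 and 0.087. For CRST against CON the pericyte median turned to 0.01 without normalization and to 0.029 without CON replicate 2, and the endothelial median to 0.044 without CON replicate 2. The cause of these moves was not tested. The signal of Myh11 near the background limits what its fold can show.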
